A study of Schmidtea mediterranea with 6 samples.

Results

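Poly(A) sites of the planarian flatworm Schmidtea mediterranea whose signal peaked in the X2 gate of sorted cells were described across 3 cell populations. The 54 member sites were selected on their array signal by a rule with 3 conditions. The site's brightest probe had to be well above background on both X2 arrays, its X2 mean had to lie at least 0.7 above both the X1 mean and the Xins mean on the log2 scale, and each X2 array had to exceed all 4 other arrays. They were 54 of 5054 sites on the array (1.07%) and of the 1169 sites well above background on both X2 arrays (4.62%). Because these values chose the members, X2 levels against X1 and Xins are given as a description only. The files pair no probe with a gene name, so sites are named by contig, strand and position, in the files' own coordinates; no source used here states their genome build.

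Cells of the sexual strain were sorted by flow cytometry into X1, labelled stem cells, X2, labelled progenitor cells, and Xins, labelled differentiated cells, with no treatment named. Each gate was measured on 2 one-colour arrays of a custom design described as one of distal polyadenylation sites, and all 6 arrays lay on 1 slide. Whether the 2 samples of each gate were separate worms or sorts is not stated, so the p-values below cover the spread between samples alone, which may be technical. The label of X2 as progenitor cells could not be checked against marker genes, since no probe carries a gene name.

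Planarian stem cells, called neoblasts, are the only dividing somatic cells of the adult worm, and their progeny leave the cycle and differentiate. The X2 gate is set by DNA content and cell size and is known to hold a mixture of early post-mitotic progeny and smaller stem cells, whereas Xins cells survive irradiation. A poly(A) site is the place where a transcript is cut and its tail added, usually downstream of the signal AATAAA or a variant such as ATTAAA. In bulk RNA of a gate, fewer cells of a type and less RNA per cell cannot be told apart.

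The last 30 nt of the brightest probe, 5′ to 3′, are shown for sites that carry the results below, with AATAAA or ATTAAA in capitals where it begins 10 to 35 nt before the probe ends and lies within the 30 nt shown. The first 3 rose most from X1 to Xins, and the next pair fell.
Contig7045, minus strand, 13923 to 14040: tagaaatttggttatgagctactaataaaa
Contig8247, plus strand, 7074: ggagacgttggtttaagaggagctaaaggc
Contig532, minus strand, 122619 to 122694: tatgctttgtggtccatgtagctctacgaa
Contig3741, plus strand, 35625: atgtgttgAATAAAacttatgttcagttac
Contig1066, minus strand, 10776 to 10778: gctccgtaATTAAAagttcccatttgagac
The next 5 sites had large margins of X2 over both other gates and were above background on all 6 arrays, and the pair on Contig587 lay close together on opposite strands.
Contig587, minus strand, 24812 to 24829: ctgcttttctgaatatacctattttgacat
Contig587, plus strand, 26454 to 26467: gAATAAAattcctttaattaattttattac
Contig3090, minus strand, 36096 to 36146: ttaaacgcatcagaatttggctctctttgt
Contig124, plus strand, 98910 to 98922: taAATAAAtgtttgtatttctatattattt
Contig3054, plus strand, 48180 to 48225: ttcacaagcattaattttaaaaaataacaa
The following pair shared most of its sequence and its profile across the gates.
Contig6075, minus strand, 39550 to 39571: catttctatagttcccgtctttttcatggt
Contig21132, plus strand, 1622 to 1648: aatgaatacatttctatagttcccgtctta
The last 4 sites were among the brightest in X2 or were above background in X2 and in no other gate, and AATAAA of Contig128 begins 35 nt before its probe ends, outside the stretch shown.
Contig10791, minus strand, 11750 to 11916: cggcgaagaaatccaaaaAATAAAcaatgc
Contig9115, minus strand, 13792 to 13809: tgcatgttAATAAAtttatttttcaaagat
Contig7244, plus strand, 15421 to 15456: aatttcggattttcttttataaaatacatt
Contig128, minus strand, 54965 to 55015: aaatgttacaatttattattatgattatta

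Sites peaking in X2 were a small set. Among the 1169 sites above background on both X2 arrays, 119 had both X2 arrays above the other 4 (10.2%), and 54 of these also met the margin of 0.7. Turned to the other gates, the rule gave 199 sites highest in X1 and 292 highest in Xins. Turned to sites lowest in X2, it gave 36, but there all 4 X1 and Xins arrays had to be above background. The 36 are therefore not like for like with the 54 sites peaking in X2. The count depended on both X2 arrays, since with array 1 or array 2 of X2 left out 159 or 205 sites met the rule. Of the 54 members, 50 and 47 were among them. For a member only the margin could fail there, since the full rule had already set the other conditions. Just inside the margin lay Contig10053 (minus strand, 20339 to 20340) at 0.72 and Contig1549 (plus strand, 86046 to 86053) at 0.71. Just outside it lay Contig1239 (plus strand, 70111 to 70119) and Contig3939 (plus strand, 15269 to 15320), both at 0.69.

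The margin, meaning the X2 mean minus the higher of the X1 and Xins means, ran from 0.71 to 2.15 as fitted, with a median of 1.08, and 35 members reached at least 1. For 11 members, 9 of these 35 and the highest value among them, another gate had no array above background, so the fitted margin is not a measured one. The other 43 had at least 1 array of each gate above background, and 32 of them were above background on all 6 arrays. Over these 43 the margin ran from 0.71 to 1.98 with a median of 1.04, and 26 reached at least 1. The lower X2 array cleared the highest of the other 4 arrays by 0.04 to 1.92, with a median of 0.59. Log2 signals are given with each array's 75th percentile set to 0. An X2 mean above 0 was found at 10 of the 54 members (18.5%), close to the 19.8% of the X2-detected sites. The share with an X2 mean below -4 was 37.0% among members and 26.6% among X2-detected sites. In all, 32 members were above background on all 6 arrays, 16 on 3 to 5 arrays and 6 on the X2 arrays alone. The spread between the 2 arrays of a gate had a median SD of 0.28 in X1, 0.26 in X2 and 0.36 in Xins among members. The corresponding medians over the 1349 sites tested were 0.37, 0.44 and 0.41. Since the rule asked each X2 array to exceed all others, it favoured sites with a small spread, and nothing is read from the difference.

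**Figure D1:**
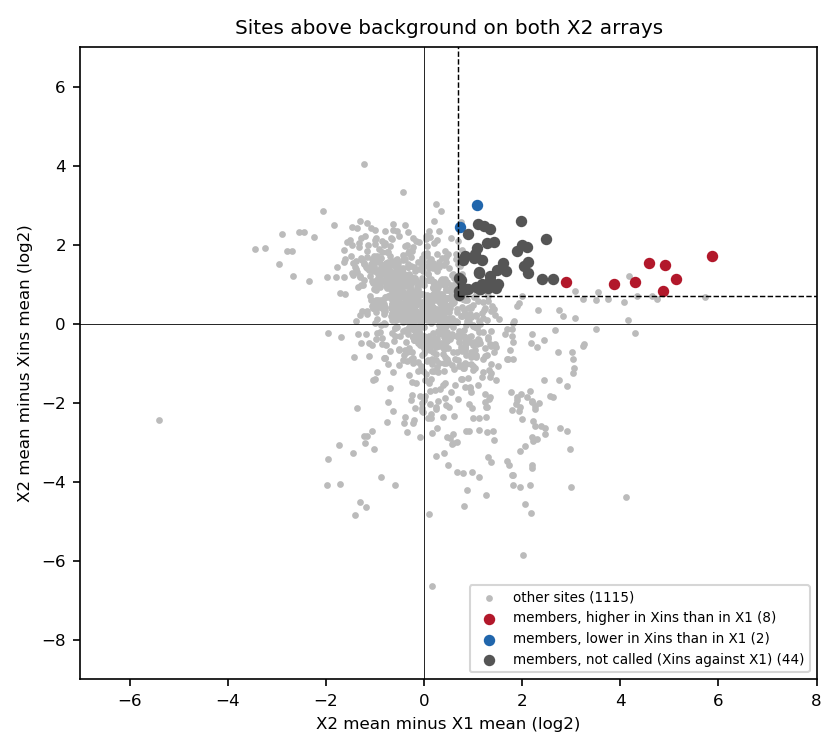
Each point is a site above background on both X2 arrays, placed by its X2 mean minus X1 mean (x axis) and X2 mean minus Xins mean (y axis), both in log2 units, with dashed lines at the margin of 0.7. The 54 members lie in the upper right corner. The 8 that rose from X1 to Xins (red) lie at 2.90 to 5.87 above X1, and members not called reach 2.62. The place of the 8 follows from arithmetic, since their distance from X1 adds the rise to the distance from Xins.

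Members differed in how the other 2 gates compared with each other. The question is whether a site that peaks in X2 sits on a difference between stem cells and differentiated cells or stands above 2 similar gates. Xins against X1 is the contrast that the rule did not set directly. A site with a wide gap between these gates could enter only where X2 exceeded the higher one, so shares are given beside those of all tested sites without reading the gap between them as a result. In limma's fit over all 6 arrays, 8 members were higher in Xins than in X1 (14.8%, against 24.6% of the 1349 sites tested) and 2 were lower (3.7%, against 24.7%). With the spike-in scaling the counts were 7 higher and 0 lower, with 2 lower at an unadjusted p under 0.05 in limma. The other 44 members did not pass, 3 of them with an unadjusted p under 0.05. The median size of the Xins minus X1 difference was 0.56 over members and 1.42 over tested sites, and 70.4% of members against 35.8% of tested sites lay under 1. Both Xins arrays exceeded both X1 arrays at 20 members (37.0%, against 36.9% of tested sites), and both X1 arrays exceeded both Xins arrays at 11 (20.4%, against 41.4%).

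The labels number the samples of each gate without naming a pairing, and the fit was also made with the replicate number as a block. It gave 10 members higher in Xins than in X1, against 32.2% of tested sites, and 8 lower, against 36.9%. The 2 sites added to the rises were Contig3876 (minus strand, 24079 to 24127) and Contig128. The 6 added to the falls were on Contig10865, Contig2, Contig1142, Contig2712, Contig1638 and Contig1622. The sites named from this fit other than Contig128 and Contig1622 were chosen after their values were seen.

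The 8 members that rose from X1 to Xins had X1 as the lowest gate, Xins in between and X2 highest. Their X2 means lay 2.90 to 5.87 above X1, a range of 7.44- to 58.5-fold, but 0.82 to 1.70 above Xins, a range of 1.77- to 3.26-fold. The 58.5-fold was at Contig7045, where 1 X1 array was not above background, so it is not a fully measured fold. The next highest over X1 was 34.9-fold, at Contig532. The margin over Xins moved with the Xins arrays. Without array 1 of Xins it was 0.24 to 1.17 and fell under 0.7 at 5 of the 8 sites (Contig8247, Contig26531, Contig21132, Contig6075 and Contig532), and without array 2 it was 0.86 to 2.59. Of these 8 sites, 7 were above background on all 6 arrays, as were 888 of the 1349 tested sites. In the set of 8, 7 spanned more than 15 nt and none had AATAAA in the window. Among X2-detected sites, 50.7% spanned at most 15 nt and 33.6% had AATAAA there. The 8 include Contig6075 and Contig21132, which share most of their probe sequence. The probe of Contig7045 holds AATAAA nearer its end than the window. Nothing is read from these counts.

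The largest rise was at Contig7045 (transcript model mk4.007045.04.01), whose log2 signals were -6.33 and -6.35 in X1, -0.73 and -0.21 in X2, and -3.06 and -1.29 in Xins. The 3 gates did not overlap, and 1 of the 2 X1 arrays was above background. Xins exceeded X1 by 4.17 (SE 0.61, limma adjusted p = 0.00267), with adjusted p from 0.00024 to 0.109 over the alternatives. The call ended after normexp correction, where the difference was 0.84. That setting added an offset of 50 units before the log, which by arithmetic shrinks log2 differences at dim probes.

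At Contig8247 (model mk4.008247.00.01), log2 signals were 0.01 and -0.16 in X1, 4.69 and 4.89 in X2, and 3.39 and 4.55 in Xins. Both X1 arrays lay far below the other 4, and the higher Xins array came within 0.14 of the lower X2 array. Xins exceeded X1 by 4.05 (SE 0.47, limma adjusted p = 0.00134), and the adjusted p stayed between 0.000126 and 0.00575 over the alternatives.

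Contig532 was at -0.59 and -0.64 in X1, at 4.50 and 4.52 in X2 and at 2.91 and 3.84 in Xins. The X2 arrays nearly coincided above both Xins arrays, and X1 lay far below. Xins exceeded X1 by 3.99 (SE 0.42, limma adjusted p = 0.000959), with 0.000106 to 0.0051 over the alternatives.

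Contig21132 and Contig6075, on opposite strands of different contigs, rose alike. Contig21132 was at -3.47 and -4.55 in X1, 0.60 and 1.17 in X2, and -1.54 and 0.36 in Xins. Contig6075 was at -3.34 and -4.17 in X1, 0.52 and 1.13 in X2, and -1.62 and 0.22 in Xins. At both sites the gates did not overlap, but the Xins arrays stood apart, with array 2 close to the X2 arrays. The differences between Xins and X1 were 3.42 (SE 0.70, limma adjusted p = 0.00843) and 3.05 (SE 0.67, adjusted p = 0.011). After normexp correction the adjusted p values were 0.0772 and 0.0791. Because their probes shared a run of 51 nt, these sites are not separate observations.

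Among the other rises, Contig26531 (plus strand, 1787 to 1839) exceeded X1 by 3.23 in Xins (limma adjusted p = 0.00349) and Contig3771 (plus strand, 35766 to 35811) by 2.86 (adjusted p = 0.00308). Both were chosen for mention after their values were seen. The call at Contig26531 ended with the mean over its probe sequences (difference 1.19, adjusted p = 0.186), where the second sequence, above background on 1 array, read -8.58 and -5.64 in X1 and -8.50 and -7.41 in Xins. The smallest rise was at Contig1 (plus strand, 145824 to 145909), with -5.84 and -4.70 in X1, -2.59 and -2.16 in X2, and -3.28 and -3.54 in Xins. Its 3 gates did not overlap. The difference between Xins and X1 was 1.86 (SE 0.48, limma adjusted p = 0.0196). This call ended without array 1 of X1 (adjusted p = 0.111), without array 1 of Xins (0.0751) and without array 2 of Xins (0.0506). It also ended after normexp (difference 0.24, adjusted p = 0.148), with spike-in scaling (0.0794) and with no filter on dim sites (0.209).

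The 2 members that fell from X1 to Xins had the reverse order, with X1 between X2 and Xins. Contig1066 (model mk4.001066.07.01) was at -2.27 and -2.19 in X1, -1.60 and -1.41 in X2, and -3.89 and -4.03 in Xins, with no overlap between gates. Xins was below X1 by a log2 difference of -1.73 (SE 0.35, limma adjusted p = 0.00782, 0.00233 to 0.22 over the alternatives). The call ended with spike-in scaling (0.0952) and with no filter on dim sites (0.22). It was above background on all 6 arrays, and its X2 mean was 1.65-fold that of X1 and 5.47-fold that of Xins.

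Contig3741 (model mk4.003741.00.01) was at -4.96 and -4.67 in X1, -3.69 and -3.77 in X2, and -6.11 and -7.35 in Xins. X2 was highest on both arrays and Xins lowest, and neither Xins array was well above background. The fitted difference was -1.92 (SE 0.49, limma adjusted p = 0.0181). Against the lowest signal counted as above background on each Xins array, or the probe's own where higher, X1 was at least 1.84-fold higher and X2 at least 3.89-fold higher. The call ended without array 1 of X1 (adjusted p = 0.0508), without array 2 of X1 (0.0753) and with array 2 of Xins left out (0.0751). It also ended after normexp (difference -0.18, adjusted p = 0.114), with spike-in scaling (0.107) and with no filter on dim sites (0.188). With array 1 of X1 or array 2 of Xins left out, 1 member was called lower in place of 2.

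**Figure D2:**
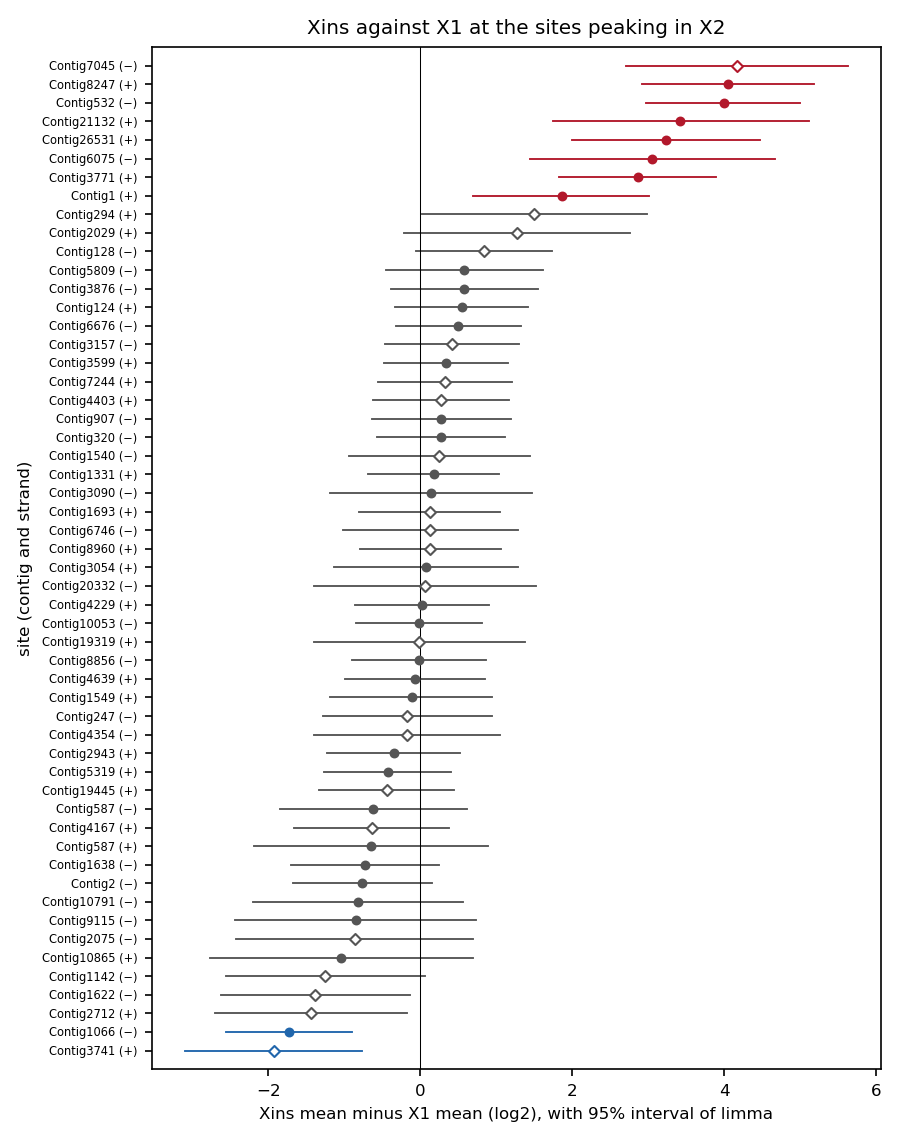
The Xins mean minus the X1 mean in log2 units (x axis) is drawn for each of the 54 members (y axis) with its 95% interval from limma, in red for the 8 called higher, blue for the 2 called lower and grey for the others, filled where the site was above background on all 6 arrays and hollow otherwise. The 8 rises lie between 1.86 and 4.17, and most other members lie near 0.

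In the fit without the block, 44 members stood above 2 gates whose difference did not pass the test, and 8 of them passed with the block as given above. In the unblocked fit, their Xins minus X1 difference ran from -1.44 to 1.5 with a median of 0, and their 95% intervals reached a median of 1 to either side. Within that interval, differences between X1 and Xins of that size cannot be told from none. X2 was 1.64- to 4.32-fold X1 at the 37 of them above background on at least 1 X1 array and at least 1.49- to at least 3.05-fold X1 at the other 7. X2 was 1.66- to 6.03-fold Xins at the 35 above background on at least 1 Xins array and at least 1.36- to at least 2.79-fold Xins at the other 9. Of the 44, 24 were above background on all 6 arrays, as were 888 of the 1349 tested sites. In the set of 44, 16 spanned more than 15 nt, while 50.7% of X2-detected sites spanned at most 15 nt.

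Contig3090 had the second largest margin among members above background on every array, 1.95. Its log2 signals were -3.64 and -3.11 in X1, -1.58 and -0.99 in X2, and -3.94 and -2.54 in Xins. Both X2 arrays lay clear of the rest, while the X1 values lay within the range of the Xins values. Xins differed from X1 by 0.14 (95% interval -1.19 to 1.47, limma adjusted p = 0.848).

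Contig124 was at -2.93 and -2.56 in X1, -0.79 and -0.48 in X2, and -2.16 and -2.24 in Xins. The X2 arrays stood 1.37 or more above all others, and the X1 and Xins arrays did not overlap. The difference between Xins and X1 was 0.55 (95% interval -0.33 to 1.42, limma adjusted p = 0.248).

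Contig3054 was a bright member, at 3.98 and 3.31 in X1, 4.93 and 5.56 in X2, and 3.21 and 4.24 in Xins. Its linear processed signals in X2 were 12693 and 12064 units, against 6491 and 1897 in X1 and 3294 and 3481 in Xins. X2 was highest on both arrays, and X1 and Xins overlapped. Their difference was 0.08 (95% interval -1.14 to 1.29, limma adjusted p = 0.904).

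Contig10791 and Contig9115 had the highest X2 signals of the members. Contig10791 was at 6.5 and 6.94 in X1, 7.10 and 7.91 in X2, and 5.18 and 6.62 in Xins, and it was saturated on 1 array. The lower X2 array exceeded the higher X1 array by 0.16 only. Contig9115 was at 4.38 and 4.91 in X1, 5.15 and 6.29 in X2, and 2.97 and 4.61 in Xins, and here the smallest gap was 0.24. At both sites array 2 of each gate was higher than array 1, so that the spread within X2 and Xins was wide beside the gap. Xins against X1 did not pass, at -0.82 (adjusted p = 0.271) and -0.85 (adjusted p = 0.313) in limma's fit.

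**Figure D3:**
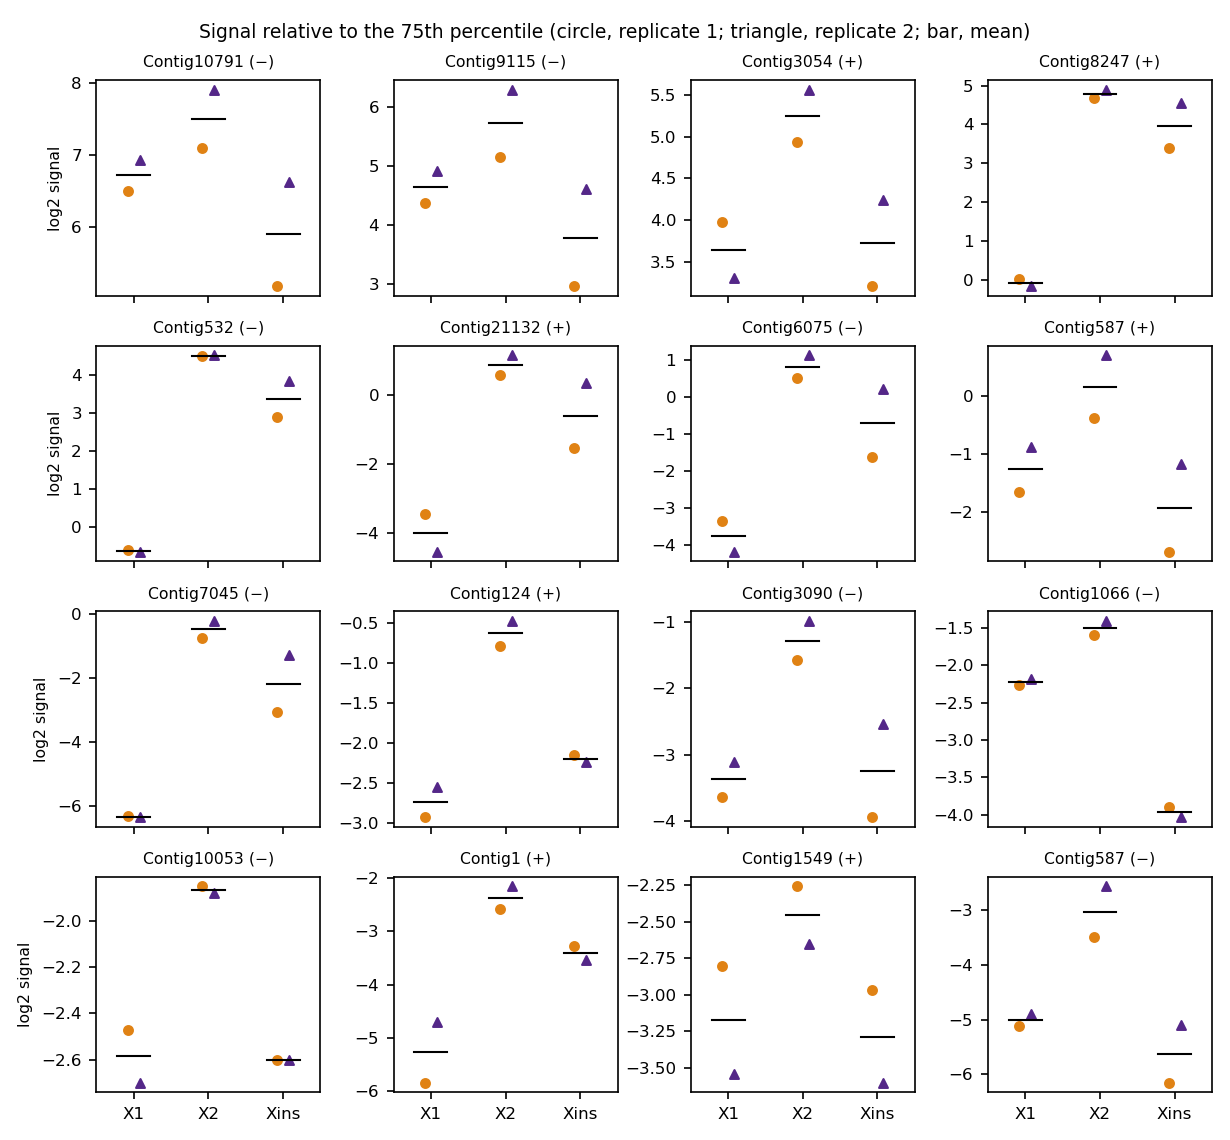
Log2 signal with each array's 75th percentile at 0 (y axes, own range per panel) is plotted for 16 members in X1, X2 and Xins (x axis), with circles for array 1, triangles for array 2 and bars for the means of 2 arrays. X2 is highest on both arrays in every panel by the choice of members, and array 2 of Xins lies near the X2 arrays at Contig21132 and Contig6075.

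Contig587 held the only members within 20 kb of each other, 1642 nt apart on opposite strands. The minus-strand site was at -5.11 and -4.90 in X1, -3.50 and -2.57 in X2, and -6.15 and -5.10 in Xins, with a margin of 1.98. The plus-strand site was at -1.65 and -0.88 in X1, -0.38 and 0.69 in X2, and -2.67 and -1.17 in Xins, with a margin of 1.42. At both sites X2 was highest, X1 and Xins overlapped, and array 2 was higher than array 1 in all 3 gates. Xins against X1 was not called at either site, with adjusted p of 0.346 and 0.424 in limma. In all, 11 members had 13 neighbouring sites within 20 kb, of which 11 were no members and 5 of those were above background on both X2 arrays.

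For 11 members, at least 1 of the other gates had no array above background, so the fold of X2 over that gate is a bound. The 17 bounds ran from at least 1.36-fold to at least 3.89-fold. Contig7244 was at -4.09 and -4.44 in X2, with X1 at -6.56 and -6.92 and Xins at -6.36 and -6.47. It was above background on the X2 arrays alone, at least 3.05-fold higher than in X1 and at least 2.79-fold higher than in Xins.

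Contig19319 (plus strand, 15016 to 15025) was at -5.44 and -4.42 in X2, at least 1.85-fold above X1 and at least 1.76-fold above Xins. X1 was at -6.34 and -7.50 there and Xins at -6.55 and -7.31, none above background. Contig20332 (minus strand, 7348 to 7349) was at -4.67 and -5.29 in X2 and at least 1.70-fold above Xins, where neither array was above background. One of the X1 arrays was, and the X1 values were -6.18 and -7.58.

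Contig128 was at -5.07 and -5.44 in X2, -7.26 and -7.48 in X1, and -6.36 and -6.70 in Xins, with no overlap between gates and only the X2 arrays above background. Its bounds were at least 1.54-fold over X1 and at least 1.41-fold over Xins. With the replicate block, Xins against X1 passed there (log2 difference 0.84, limma adjusted p = 0.014, against 0.101 without it), although both gates were below background.

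Contig1622 (minus strand, 7959 to 7979) was at -4.18 and -5.48 in X2, -5.91 and -5.53 in X1, and -6.86 and -7.35 in Xins. The lower X2 array exceeded the higher X1 array by 0.05 only. Xins against X1 was -1.38 (limma adjusted p = 0.0652), with neither Xins array above background. The adjusted p was 0.0451 with the replicate block and 0.0408 without either X2 array. The members on fewer than 6 arrays numbered 22, with a median fitted margin of 1.12, 11 of them against an undetected gate, and a median X2 mean of -4.46. The members on all 6 arrays had medians of 1.02 and -1.32.

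Other probes at the same sites did not choose the members, but they read the same RNA on the same arrays. Most of them also shared sequence with the probe that did. Their counts are a description, given without a share for sites outside the members, and are no separate support for the peak. A second probe sequence existed at 14 member sites (25.9%), and at 12 of these it shared a run of 18 nt or more with the brightest probe, offset by a median of 10 nt. At 10 of the 14, the second sequence also had both X2 arrays above the other 4 with a margin of at least 0.7. Of the 11 second sequences above background on both X2 arrays, 9 did so.

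The second sequence at Contig3090 had a margin of 2.05, against 1.95 for the brightest, and that at Contig21132 had 1.60 against 1.47. At Contig1 the margins were 1.53 and 1.04, and at Contig7244 they were 1.67 and 2.15, where the second sequence was above background on no array. At Contig1622 the second sequence had a margin of 0.44 against 0.89 and was likewise above background on no array. Contig8856 (minus strand, 4683 to 4714), chosen for mention after its values were seen, had a second sequence above background on both X2 arrays with a margin of 0.44 against 0.86. The second sequence at Contig10791 read 0.99 and 0.36 in X1 and 0.98 and 1.90 in X2, so that X2 array 1 did not exceed X1 array 1.

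Several transcript models carried the same probe sequence at 29 member sites, where 58 probes came in addition to the brightest one that chose the site. Of these 58, both X2 arrays were above the other 4 at 52, and the margin was at least 0.7 at 47. They share their sequence with the brightest probe and are no separate transcripts. The mean SD between such probes on an array had a median over sites of 0.10 and reached 0.74, at Contig1622.

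**Figure D4:**
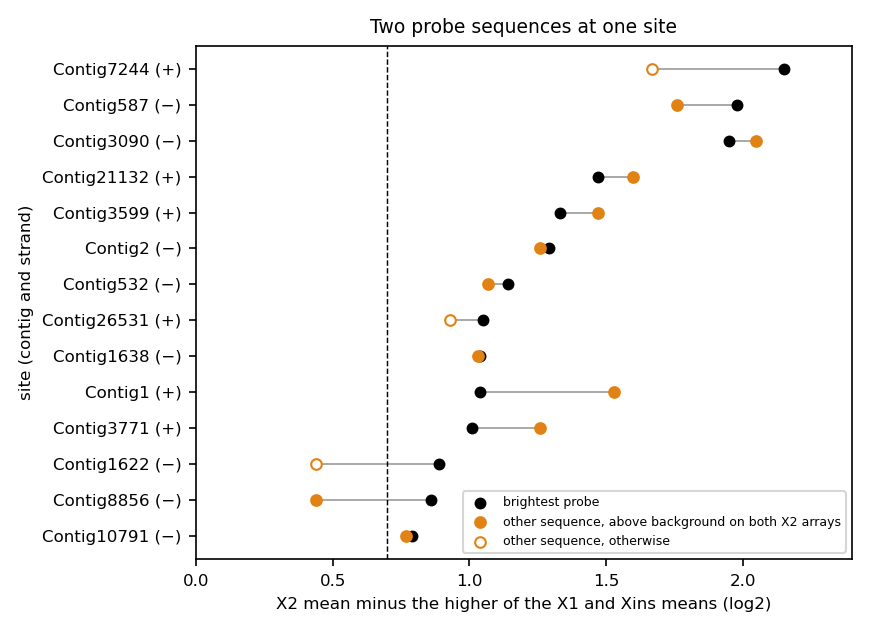
The X2 margin in log2 units (x axis) is drawn for the brightest probe (black) and the second probe sequence (orange, filled where above background on both X2 arrays) at the 14 member sites with 2 sequences (y axis), with a dashed line at 0.7. The second sequence falls to 0.44 at Contig1622 and Contig8856 and stays above the line at the other 12 sites.

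In all, 10 members shared a run of at least 18 nt with another site of the array, and 8 of them formed 4 pairs of members. The shared stretches, of at most 30 nt each, show which members cannot count as separate.
Contig21132 with Contig6075, run of 51 nt, first 30 shown: agtttagctatgaccttaggataatgaata
Contig6746 with Contig4354, identical probes, first 30 nt shown: gtgatttatttggtgttttaacaataaatc
Contig19445 with Contig4167, identical probes, first 30 nt shown: tttaatcgtcagtatgatgtttattacaat
Contig10865 with Contig9115, run of 26 nt: cacgttaataaaagttatgcatgtta
With identical probes counted once, the 54 members had 52 distinct sequences, on 53 contigs. The probe of Contig10053 shared 45 nt with that of Contig19769 (minus strand, 9302), a site outside the rule. Contig19769 was at -2.86 and -3.02 in X2, above all its other arrays (-3.30 and -3.57 in X1, -3.71 and -3.45 in Xins), with a margin of 0.50. Contig124 shared 20 nt with Contig1006 (plus strand, 38013), which was below background on all 6 arrays. Whether transcripts of one site bound the probe of another was not tested.

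The rule did not use the probe sequences, which are compared here with those of other sites. AATAAA, searched on the probe strand from 10 to 35 nt before its 3′ end, was present at 16 members (29.6%, Wilson 95% interval 19.1 to 42.8), against 42.8% of all sites, 34.5% of tested sites and 33.6% of X2-detected sites. ATTAAA without AATAAA was present at 5 members (9.26%), against 8.07% of all sites, 5.34% of tested and 5.13% of X2-detected sites. The other 33 members (61.1%) held neither hexamer in that window, against 61.2% of X2-detected sites. The AATAAA shares of tested and X2-detected sites lay inside the counting interval of the members' share. That interval counts each member as separate, although the 54 members had 52 distinct sequences. A probe of a wide site need not end at the cut, and among members spanning at most 15 nt AATAAA was present at 13 of 31 (41.9%), against 37.9% of X2-detected sites of that width. AATAAA began a median of 23 nt before the probe's 3′ end among members and 25 nt among X2-detected sites.

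Members had a median GC content of 26.7%, against 26% for X2-detected sites and 21.6% for all sites. Their median span was 11.5 nt, against 15 nt for X2-detected sites and 3 nt for all sites. Spans of at most 15 nt made up 57.4% of members and 50.7% of X2-detected sites. AATAAA was present at 8 of the members above background on all 6 arrays and at 8 of the others.

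The X2 contrasts that the rule used gave the following limma calls. Since these contrasts chose the members, their counts were bound to exceed the shares beside them, and nothing is read from the difference. X2 exceeded X1 at 13 members, against 4.67% of tested sites, and exceeded Xins at 18 members, against 11.5% of tested sites, with 5 members in both sets. With the replicate block these counts were 35, against 16% of tested sites, and 46, against 31.2%.

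All 54 margins stayed above 0 under each of 5 other normalizations, but not all stayed at 0.7 or more. Spike-in scaling and the 75th percentile over all probes subtract a single constant per array, so they move margins by fixed shifts between gates. From 0.7 upward, these shifts could not bring a margin below 0.57 with the percentile or 1.33 with spike-in scaling. For both, the sign of the margins could not have shown a reversal. The rule was still met by 45 members with the 75th percentile taken over all probes, by 47 after quantile normalization, by 16 after normexp and quantile normalization, by 32 in the authors' value table and by all 54 with spike-in scaling. The 13 members that met it under all 5 were on Contig3090, Contig7045, Contig124, Contig6075, Contig3054, Contig21132, Contig587 (plus strand), Contig3599, Contig2, Contig9115, Contig26531, Contig1638 and Contig3771. Their list was read off after the values were seen. The median margin was 0.96, 1.12, 0.23, 0.84 and 1.70 in the same order of normalizations, against 1.08 in the values used here.

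**Figure D5:**
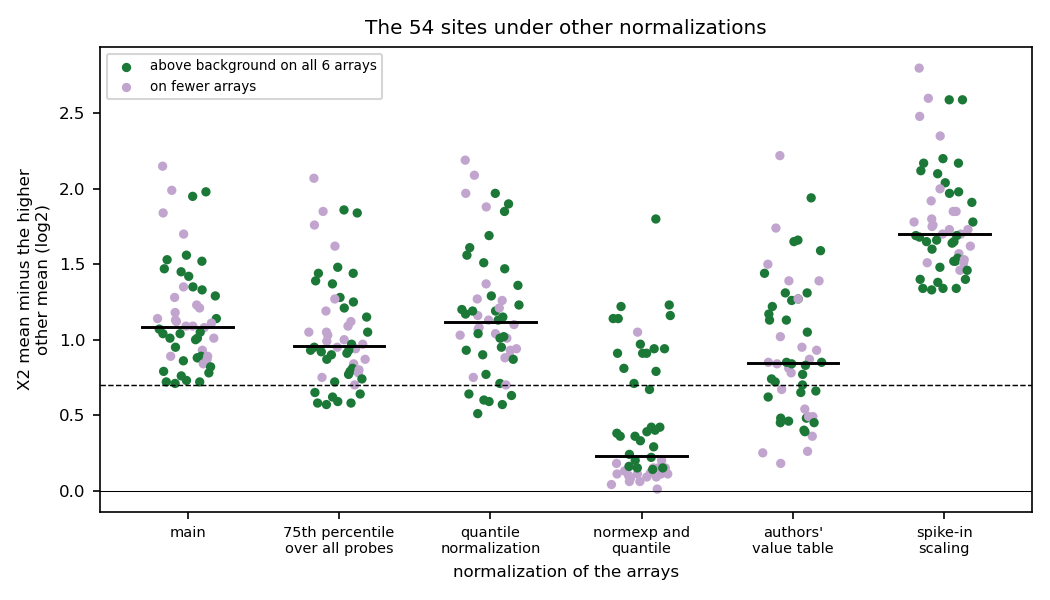
The X2 margin of each of the 54 members in log2 units (y axis) is plotted under the values used here and 5 other normalizations (x axis), in green for the 32 members above background on all 6 arrays and in lilac for the others, with bars at the medians and a dashed line at 0.7. After normexp, where an added offset of 50 units shrinks differences at dim probes, the lilac members sink toward 0. With spike-in scaling all 54 lie at 1.33 or above.

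Array quality bears on these values as follows. Between 23.1% and 28.5% of the probes (2515 to 3108) were detected per array, and array 1 of X1 and array 1 of X2 lay in the upper row of the slide while the other 4 lay in the lower row. With the slide row as a block, 8 members were called higher and 2 lower in Xins than in X1, as without it. The number of arrays limits the precision of every value above.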

How the data were processed

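Per the labels' protocols, poly(A) RNA was captured on oligo-dT, amplified in a linear way with a T7 primer and marked with Cy3. The scanner output deposited by the authors gives linear intensity, made with Feature Extraction 11.5.1.1 per the file headers, as background-subtracted, detrended processed signal with surrogates for low spots (52.6% to 58.7% of spots per array). The authors' deposited value table was read as natural log, since its columns rose by 0.694 to 0.695 per log2 unit of signal except array 1 of X2 (0.719). The submitters' processing notes name limma but no source used here states how the table was normalized, and it was used only for comparison.

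Controls were left out, as were 11 spots marked as outliers. Values are log2 of the processed signal, averaged per probe, minus the array's 75th percentile, taken over 1914 probes detected on all 6 arrays. Each site was represented by its brightest probe. Sites above background on both arrays of a gate were tested (1349) with limma 3.58.1 in R 4.3.3 over all 6 arrays (prior 3.66, total 6.66 degrees of freedom), with Benjamini-Hochberg adjustment over all 1349 and a threshold of 0.05. The fit was also run on simulated data with independent errors between arrays. That run does not cover the correlation between same-numbered arrays given below.

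The replicate numbers come from the labels. Deviations of same-numbered arrays correlated at 0.573 for X1 with X2, 0.419 for X1 with Xins and 0.353 for X2 with Xins. The replicate block treats the numbers as a pairing. Array 1 was also brighter than array 2 in each gate. Whether a pairing of samples or this difference in brightness lay behind the correlations was not tested.

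The members and lists were chosen with earlier results of these data known. Sites were named as the 3 largest rises and falls between X1 and Xins, the largest margins among sites above background on all 6 arrays (6) or not above background in another gate (4), the 3 brightest in X2, those nearest the margin, the 3 with the largest difference between probe sequences, and members within 20 kb of each other. Others are said to be chosen after their values were seen. Marker lists of cell types could not be matched, since the files pair no probe with a gene name. Alternatives covered the scaling, background correction, source of values, filter, probe choice, blocks, margin and each array left out.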

Additional observations from a re-analysis of the deposited data

How the results depend on the processing

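The number of sites peaking in X2 was 54, and it became 20 after normexp and quantile normalization, 189 with spike-in scaling, 32 with only sites above background on all 6 arrays and 35 with a margin of 1. With single arrays left out it ran from 56 to 205, highest where 1 X2 array alone had to exceed the others. The 8 members higher in Xins than in X1 became 4 after normexp and ran from 7 to 9 with single arrays left out. The 2 members lower in Xins became 1 after normexp, 0 with spike-in scaling, 1 with only sites above background on all 6 arrays (the other was not tested), 0 with no filter on dim sites and 1 to 3 with single arrays left out. Both counts of 0 are from limma, with 2 members lower at an unadjusted p under 0.05. With the replicate block, the members lower in Xins became 8, and among named sites the block changed no call other than those of Contig128 and Contig1622. The offset of 50 units added with normexp lowers log2 differences at dim probes by arithmetic. How far it accounts for the changes after normexp was not tested, nor were the causes of the other changes.

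At the 22 named sites, the Xins minus X1 difference was recomputed 367 times, and 344 values gave the same call, 17 lost the call, 6 gained it and none turned a called direction. Of 286 X2 margins under settings that can move a margin at some sites, 53 moved by more than the spread between arrays. None fell below 0, but with a single array left out the rule itself kept every margin above 0. The fixed shifts of spike-in scaling and of the percentile over all probes also left no margin able to fall below 0. Those values could not have shown a reversal. Spike-in scaling shifted the median of all tested sites by 0.62 for X2 minus X1 and by -0.64 for Xins minus X2, and the authors' table shifted Xins minus X1 by 0.50. The share with AATAAA stayed within its interval, at 35.2% anywhere in the probe and 41.9% at sites spanning at most 15 nt.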
